A study of Mus musculus with 43 samples.

Results

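The 9 genes described here carry glucose into cells, store it, break it down or make it anew: Pck1, G6pc, Fbp1, Pklr, Hk2, Slc2a2, Slc2a4, Gys2 and Pdp2. They are a named set, picked with earlier results of these data known and matched by gene symbol, and each was found as 1 single-gene entry among the 42349 entries of the deposited expression table. Polyadenylated RNA was sequenced from the brain, liver, skeletal muscle and inguinal white fat (WAT) of female mice that were 15 months old. WT (Irs1+/+) mice and global insulin receptor substrate 1 knockout mice (KO, Irs1-/-) were fed ad libitum (AL) or kept on 30% dietary restriction (DR), which was stepped in from 10 weeks of age and had lasted 12 months. All mice ate the same purified chow, and the restricted mice received 1 daily meal in the late afternoon while AL mice ate freely, so amount eaten and meal time cannot be told apart. Genotype and diet give 4 groups in each tissue, 16 in all, from 43 libraries. WT AL has 2 libraries in each tissue, as has WT DR in WAT, and every other group has 3.

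In the fed state glucose enters hepatocytes through GLUT2, the product of Slc2a2, and is stored as glycogen by the liver glycogen synthase, Gys2, or sent down glycolysis to pyruvate by the liver pyruvate kinase, Pklr. In fasting the liver runs the path backwards: Pck1 makes phosphoenolpyruvate, Fbp1 removes a phosphate from fructose bisphosphate, and G6pc releases free glucose into the blood. Muscle and fat take up glucose under insulin through GLUT4 (Slc2a4), and hexokinase 2 (Hk2) traps it there. Pdp2 is a phosphatase that switches on pyruvate dehydrogenase, the mitochondrial complex that commits pyruvate to oxidation. Insulin, acting in part through IRS1, is known to lower Pck1 and G6pc and to raise Hk2 in its target tissues.

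Expression is given as FPKM, a read density per length of transcript and per depth of library, on which genes of different length can be set side by side. The deposited table holds 1 pooled FPKM per gene and group with a 95% interval, so the values of single libraries and their depth are unknown and the error is that of the authors' interval. An FPKM of 1 or more was reached by 12989 to 15181 entries, depending on the group. The median relative SD of these entries lay between 27.2% and 62.3% by group. The FPKM of Irs1 ran from 1.62 to 6.56 and was higher in the KO label than in the WT label of the same diet and tissue in 7 of 8 comparisons. A gene-level FPKM does not show whether its reads come from an intact transcript. The genotype could thus not be checked from these values. KO therefore stands throughout for groups labelled KO. Liver, skeletal muscle, brain and adipocyte marker lists (8 genes each) were each highest in their own tissue in every group. The 8 red blood cell markers (mostly globins) summed to 2682 and 3471 FPKM in WT liver against 13575 and 12056 in KO liver, and to 1088 and 1057 in WT brain against 9968 and 3538 in KO brain. Their part in the genotype differences given below was not tested.

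The promoters of Pck1, G6pc and Pdp2, which were among the genes that passed the test of differences described below, are shown first. That of Fbp1, which also passed it, held none of the motifs searched for and is not printed. RefSeq windows (GRCm38.p6, 250 bases before to 50 after a transcription start) were held for 7 of the 9 genes, all but Slc2a4 and Gys2. The windows were searched on both strands for the cAMP response element TGACGTCA, its core TGACG, the E-box CACGTG, the forkhead core GTAAACA and the insulin response element CAAAACA. TGACGTCA contains TGACG, so a match to the first is always a match to the second. Positions are counted from the RefSeq start, with -1 the base before it. The printed stretches end before the gene start of the GENCODE annotation, run 5′ to 3′ on the plus strand, and carry matches in capitals.

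Pck1, chr2:173152823-173153047, 225 bases: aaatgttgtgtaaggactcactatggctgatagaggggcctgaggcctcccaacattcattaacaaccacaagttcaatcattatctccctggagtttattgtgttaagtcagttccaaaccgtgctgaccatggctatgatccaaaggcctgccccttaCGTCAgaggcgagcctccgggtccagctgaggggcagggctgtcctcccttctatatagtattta

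G6pc, chr11:101367466-101367560, 95 bases: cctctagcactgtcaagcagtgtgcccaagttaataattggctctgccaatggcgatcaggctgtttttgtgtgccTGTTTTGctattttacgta

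Pdp2, chr8:104591222-104591450, 229 bases: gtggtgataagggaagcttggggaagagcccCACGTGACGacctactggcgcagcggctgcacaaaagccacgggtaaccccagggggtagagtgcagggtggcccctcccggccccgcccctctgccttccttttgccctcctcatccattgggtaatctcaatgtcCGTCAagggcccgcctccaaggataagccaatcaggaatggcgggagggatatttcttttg

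The Pck1 promoter held TGACG on the minus strand at -90 to -86, read as CGTCA above. G6pc held CAAAACA on the minus strand at -174 to -168, which in the printed strand is TGTTTTG. Pdp2 held TGACG at -215 to -211, overlapping CACGTG at -219 to -214, and TGACG again on the minus strand at -82 to -78. Hk2 held TGACG at -50 to -46, while none of these letters were found in the windows of Fbp1, Pklr and Slc2a2. Among 32851 windows of the same length, 20.8% held TGACG, 7.15% CACGTG, 6.28% CAAAACA, 3.65% GTAAACA and 1.79% TGACGTCA.

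In GRCm38, Pck1 spans chr2:173153048-173159273, G6pc chr11:101367561-101377903 and Pdp2 chr8:104591451-104599026, all on the plus strand. Slc2a4 spans chr11:69942539-69948188, Hk2 chr6:82725025-82774454, Gys2 chr6:142422613-142473109 and Fbp1 chr13:62864753-62888282, all on the minus strand. The loci given for Slc2a2 (chr3:28697903-28781108) and Pklr (chr3:89136142-89160196) run past the ends of these plus-strand genes, to 28731359 and 89146784, over the antisense transcript 1700112D23Rik and the minus-strand gene Hcn3. Hk2 is overlapped by the antisense transcript Gm17034. Strand use in the counting is not given in the sources used here, so for these 3 genes reads of the partner cannot be told apart.

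The tissue pattern sorted the 9 genes into liver genes, muscle and fat genes, and Pdp2. G6pc, Slc2a2, Fbp1, Pklr and Gys2 were highest in liver, with mean FPKM over the 4 groups of 148, 118, 2206, 60.5 and 146. The liver mean of G6pc was 281 times that of WAT, the next tissue, and the authors' intervals did not overlap in 4 of 4 groups. The same 4 of 4 separation from the next tissue held for Fbp1 (177 times muscle) and Slc2a2 (127 times WAT), and 3 of 4 for Pklr (145 times WAT). Gys2 was 17.4 times higher in liver than in WAT by its means, yet its wide intervals overlapped in every group. Below liver, the levels of these 5 genes in WAT, muscle and brain mostly could not be ordered beyond their intervals.

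Pck1, unlike G6pc and Fbp1, was high in both liver and WAT. Its FPKM ran from 1270 to 2991 in liver and from 962 to 1237 in WAT, with intervals that overlapped in all 4 groups. In adipocytes Pck1 serves glycerol synthesis for triglyceride storage rather than glucose output. Muscle followed with 50.5 to 174, and brain listed Pck1 at 0.349 or less.

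Slc2a4 and Hk2 were highest in skeletal muscle, with mean FPKM of 220 and 42.5, followed by WAT with 85.6 and 7.85. The Slc2a4 intervals of muscle and WAT overlapped in all 4 groups, and those of Hk2 were apart in 2 of 4. In brain the means were 1.82 for Slc2a4 and 1.06 for Hk2, and in liver 0.409 and 0.787. Pdp2 was present at a low level everywhere, with means of 7.95 in liver, 2.72 in muscle, 2.28 in brain and 1.85 in WAT. Its liver intervals lay above those of muscle in 4 of 4 groups.

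**Figure D1:**
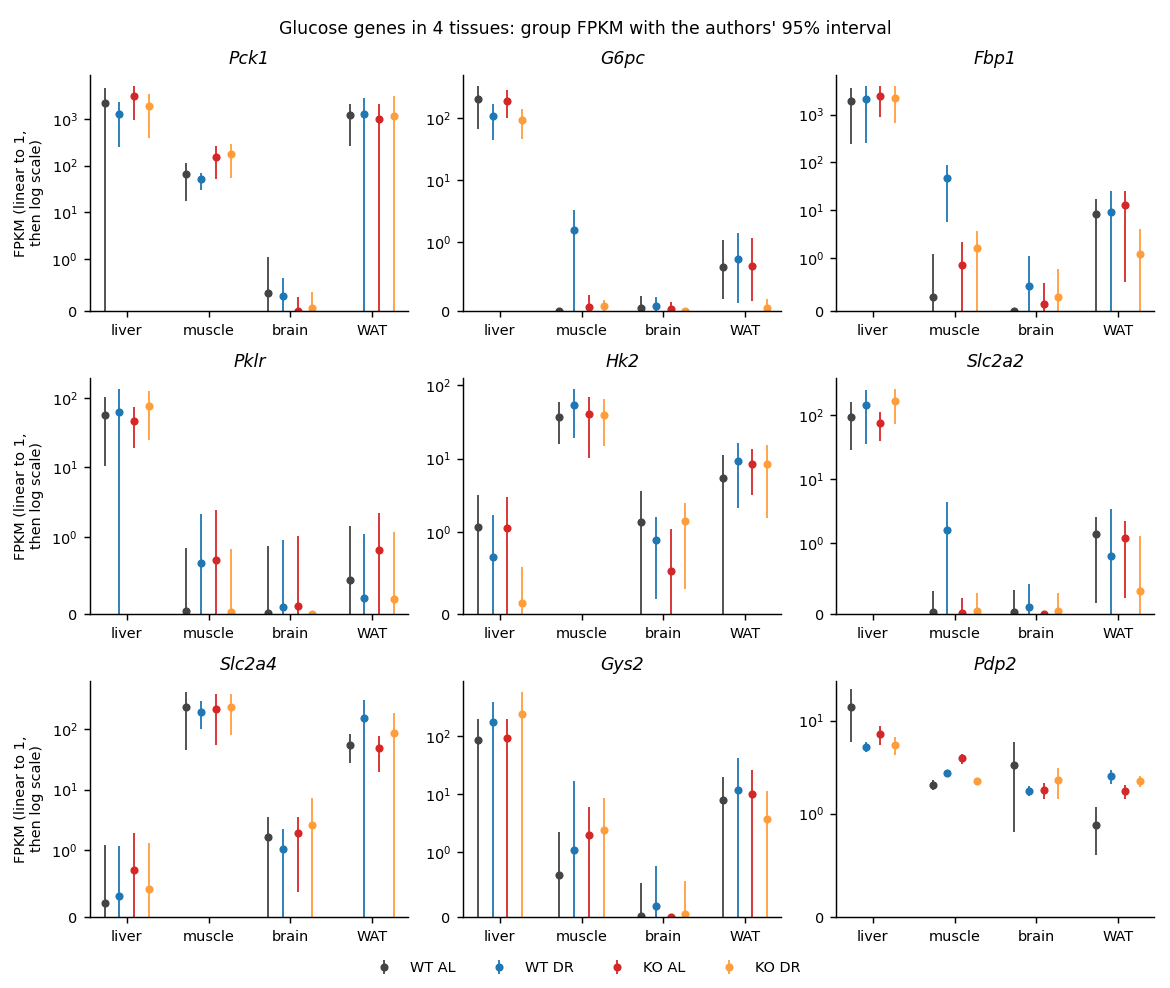
FPKM of the 9 genes (panels) in 4 tissues (x axis) and 4 groups (colours); points are group values and bars the authors' 95% interval, on an axis that is linear to 1 and logarithmic above. Slc2a4 and Hk2 stand highest in muscle, Pck1 is high in liver and WAT alike, and within muscle Fbp1 (47) and G6pc (1.56) are highest in WT DR.

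Each group difference was taken as a log2 ratio of FPKM and tested by a two-sided Wald test on the authors' intervals. Calls were made at an FDR of 10% (Benjamini-Hochberg) over every entry tested in a tissue and contrast, and a called gene is described as differentially expressed. With 2 or 3 libraries behind each value the normal reference of this test is approximate, so differences are given with their SE and with whether they passed the FDR. Of 216 possible combinations of gene, tissue and contrast, 146 could be tested (FPKM above 0 in each group used, reaching 1 in at least 1 of them), and 12 of these were called. Of the 11 calls between 2 groups, 4 had a group under an FPKM of 1 and so met the minimum through the higher group alone: G6pc in muscle (KO DR against WT DR), Fbp1 in muscle (KO AL against WT DR) and both Pdp2 calls in WAT. Pdp2 took 8 of the 12, and the others were Fbp1 in 2 contrasts and G6pc and Pck1 in 1 each, all in muscle.

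In liver no glucose gene was called in any contrast. KO AL against WT AL called 0 of 8 tested members (0.316% of all entries), WT DR against WT AL 0 of 8 (0.236%), KO DR against WT DR 0 of 7 (0.288%), KO DR against KO AL 0 of 8 (0.611%), KO AL against WT DR 0 of 8 (0.89%), and the interaction (KO less WT under DR, minus KO less WT under AL) 0 of 8 (0.086%). At an unadjusted p under 0.05 the counts were 1, 1, 0, 2, 1 and 1.

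The 2 diet comparisons in liver share no group and can be read side by side. G6pc stood at an FPKM of 200 (95% interval 66.5 to 332) in WT AL and 108 (44.1 to 172) in WT DR. In KO AL it was 191 (99.8 to 281) and in KO DR 92.5 (45.7 to 139). Both restricted groups were thus lower than both AL groups, although the intervals overlapped. The log2 difference was -0.88 (SE 0.64) in WT and -1.04 (SE 0.50) in KO, and neither passed the FDR.

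Slc2a2, which lets glucose in and out of the hepatocyte, lay on the other side. Its FPKM was 92.2 (28.4 to 156) in WT AL, 140 (34.8 to 246) in WT DR, 75.2 (38.8 to 112) in KO AL and 163 (72.2 to 254) in KO DR. Both restricted groups were higher than both AL groups, with overlapping intervals. The log2 difference was 0.60 (SE 0.74) in WT and 1.12 (SE 0.53) in KO, and neither passed the FDR.

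Gys2 lay on the same side as Slc2a2, with 85 and 171 FPKM in WT AL and WT DR and 91.4 and 236 in KO AL and KO DR, log2 differences of 1.01 (SE 1.24) and 1.37 (SE 1.29). Pck1 lay on the side of G6pc, with 2205 and 1270 in WT and 2991 and 1895 in KO, log2 differences of -0.80 (SE 0.96) and -0.66 (SE 0.76). Pklr showed 56.7 and 62.6 in WT and 47.1 and 75.7 in KO. Fbp1 was the flattest of the liver genes, between 1950 and 2451 in all 4 groups. In sign, 7 of the 8 members tested in both diet comparisons pointed the same way in WT and KO, the exception being Fbp1. Over all 13011 liver entries tested in both, 61.2% did. The members with the same sign were 5 of 7 in WAT, 2 of 6 in muscle and 0 of 3 in brain, beside 67.2%, 59.6% and 39.2% of all entries. Before adjustment, the 95% Wald interval of the difference excluded 0 for G6pc and Slc2a2 in KO and for Pdp2 in WT.

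Pdp2 in liver was 13.9 FPKM (5.94 to 21.9) in WT AL, 5.26 (4.6 to 5.92) in WT DR, 7.13 (5.44 to 8.82) in KO AL and 5.48 (4.31 to 6.65) in KO DR. WT AL was the highest and its lower bound lay just above the WT DR interval. The log2 difference was -1.40 (SE 0.42) for WT DR and -0.97 (SE 0.45) for KO AL, each against WT AL, and neither passed the FDR. Hk2, scarce in healthy hepatocytes, was 1.17 or less in every liver group.

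**Figure D2:**
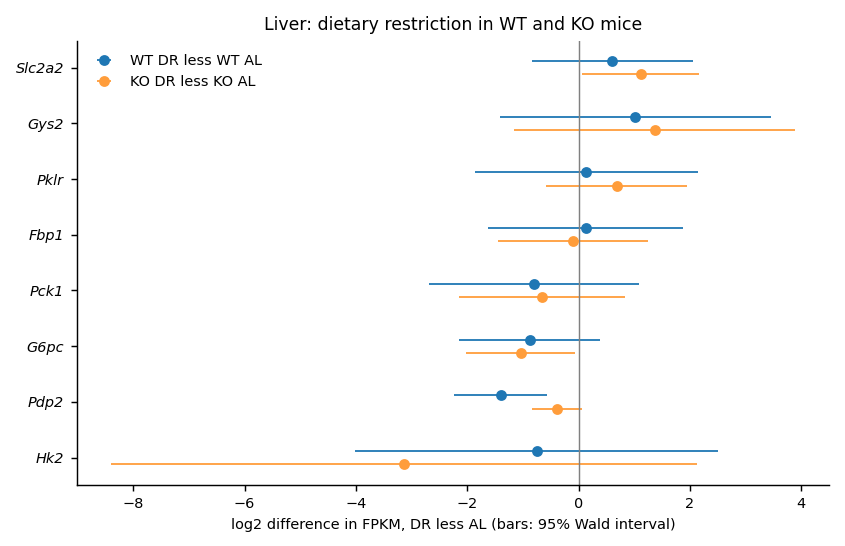
Log2 difference in liver FPKM, DR less AL (x axis), for 8 genes in WT and in KO mice; points are the differences and bars their 95% Wald intervals. Slc2a2 (0.60 and 1.12) and Gys2 (1.01 and 1.37) lie right of 0 in both genotypes, G6pc (-0.88 and -1.04) and Pck1 (-0.80 and -0.66) left of it, and most bars cross 0.

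Genotype differences in liver were smaller than their errors for most members. KO AL less WT AL was 0.44 (SE 0.91) for Pck1, -0.07 (SE 0.59) for G6pc, 0.33 (SE 0.78) for Fbp1, -0.29 (SE 0.61) for Slc2a2 and 0.11 (SE 1.21) for Gys2. Under DR, KO less WT was 0.58 (SE 0.82) for Pck1, -0.22 (SE 0.56) for G6pc and 0.22 (SE 0.67) for Slc2a2. The summed liver markers stood at 52800 FPKM in WT AL against 108382 to 131690 in the other 3 groups, and the part of this in the differences from WT AL was not tested.

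Skeletal muscle held most of the calls. KO DR against WT DR called 4 of 8 tested members, 1 higher and 3 lower, against 2.23% of all entries. KO AL against WT DR called 2 of 8 (1.89%), KO AL against WT AL 1 of 5 (0.681%), WT DR against WT AL 1 of 7 (1.4%), KO DR against KO AL 1 of 6 (0.5%) and the interaction 1 of 7 (0.371%). The glucose carriers of muscle were not among them.

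Slc2a4 in muscle was 232 FPKM (46.1 to 419) in WT AL, 196 (102 to 290) in WT DR, 218 (54.1 to 382) in KO AL and 233 (81.3 to 386) in KO DR. Its log2 differences between groups lay between -0.25 and 0.25 over the 5 contrasts, with SE of 0.58 to 0.79. Hk2 was 37.2, 53.8, 39.8 and 39.4 in the same order, and its WT DR against WT AL difference was 0.53 (SE 0.63). A log2 difference of 1 in either gene would have lain within 2 SE, so differences of that size were not detectable.

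Fbp1 had the largest called differences in muscle, and it was highest in WT DR. Its FPKM was 0.265 (0 to 1.24) in WT AL, 47 (5.73 to 88.3) in WT DR, 0.871 (0 to 2.15) in KO AL and 1.6 (0 to 3.67) in KO DR. The WT DR interval lay above the other 3. Relative to WT DR the FPKM was lower in KO DR, with a log2 difference of -4.88 (SE 1.13), and in KO AL, with -5.75 (SE 1.23). Both differences passed the FDR. Against WT AL, the log2 difference of WT DR was 7.47 (SE 2.73), which did not pass the FDR, whereas with a pseudocount of 1 it was 5.25 and did.

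G6pc and Slc2a2 in muscle had the same shape at a lower level. G6pc was listed at 0 in WT AL and stood at 1.56 (0 to 3.32) in WT DR, 0.0621 in KO AL and 0.0716 in KO DR. Its log2 difference of KO DR against WT DR was -4.44 (SE 1.18) and passed the FDR, but the gene was tested only through its WT DR value, whose interval reaches 0. With a pseudocount of 1 the difference was -1.26 and did not pass, and the intervals of the 2 groups overlapped. Slc2a2 was 0.0314, 1.57, 0.0168 and 0.0452 in WT (AL, DR) and KO (AL, DR), and no contrast of it was called.

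Liver markers moved with these genes. The 8 liver markers (Alb, Apoa1, Apoa2, Ttr, Serpina1a, Fgb, Apoh and Cps1) summed to 20.6 FPKM in WT AL muscle, 2394 in WT DR, 45.6 in KO AL and 101 in KO DR, with none of them at 0 in any muscle group. In WT DR muscle the 8 markers stood at 0.793% to 3.05% of their level in WT DR liver, with a median of 1.5%. Fbp1 stood at 2.2%, G6pc at 1.44%, Slc2a2 at 1.12% and Pklr at 1.05% of their liver level, all inside the range of the markers. Gys2 (0.636%) was below that range and Pck1 (3.98%) above it. In KO AL the markers were at 0.00507% to 0.0884%, with Fbp1 (0.0355%), G6pc (0.0326%) and Slc2a2 (0.0223%) inside that range. Pklr (1.49%), Gys2 (2.14%) and Pck1 (5.12%) were above it. In KO DR the markers were at 0.0506% to 0.145%, Fbp1 at 0.0699%, G6pc at 0.0774% and Slc2a2, below the lowest marker, at 0.0278%. In WT AL, where the markers were at 0.0233% to 0.156%, Fbp1 was below them at 0.0136%. The part of liver RNA in the Fbp1 and G6pc calls was not tested, and single libraries could not be set aside because only group values were used. Fbp2, the muscle fructose bisphosphatase, was 112, 143, 125 and 185 FPKM in WT (AL, DR) and KO (AL, DR) and was not called in any contrast.

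**Figure D3:**
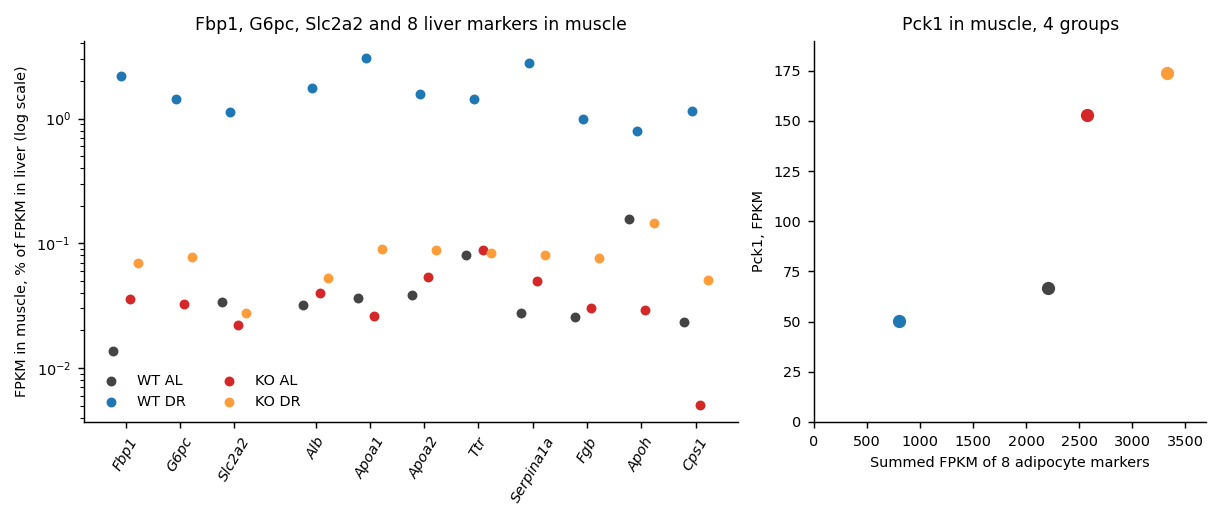
Left, FPKM in skeletal muscle as a percentage of FPKM in liver of the same group (log axis) for Fbp1, G6pc, Slc2a2 and 8 liver markers, with 1 point per group; G6pc of WT AL is listed at 0 and is not drawn. Right, Pck1 FPKM against the summed FPKM of 8 adipocyte markers in the 4 muscle groups. WT DR muscle stands near 1% to 3% for Fbp1, G6pc, Slc2a2 and the markers alike, and Pck1 is lowest (50.5) where the adipocyte markers are lowest (803).

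Pck1 was higher in KO DR than in WT DR muscle, and the same comparison under AL did not pass the FDR. Its FPKM was 66.9 (17.7 to 116) in WT AL, 50.5 (30.3 to 70.6) in WT DR, 153 (51.5 to 255) in KO AL and 174 (54.5 to 293) in KO DR. Both KO groups were above both WT groups, with intervals that overlapped. KO DR was higher than WT DR by a log2 difference of 1.78 (SE 0.57), which passed the FDR. KO AL against WT AL differed by 1.19 (SE 0.71) and KO AL against WT DR by 1.60 (SE 0.56), and neither passed. The call was lost at an FDR of 5%, without the FPKM minimum, after centring on the median of all entries and where intervals had to stand apart.

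Summed adipocyte markers in muscle were lowest and highest in the same groups as Pck1. The 8 markers (Adipoq, Plin1, Cfd, Fabp4, Lipe, Pnpla2, Lep and Cidec) summed to 2205 FPKM in WT AL muscle, 803 in WT DR, 2577 in KO AL and 3332 in KO DR, with all 8 at an FPKM of 1 or more in each group. All 8 were higher in KO DR than in WT DR, whereas between KO AL and WT AL 4 were higher and 4 (Adipoq, Fabp4, Lep and Cidec) lower. Pck1 amounted to 3.03%, 6.28%, 5.95% and 5.21% of that sum in muscle, and to 4.41%, 4.08%, 5.51% and 5.05% in WAT of the same groups. Red blood cell markers in muscle summed to 951 in WT AL and 1554 in WT DR against 11604 in KO AL and 20292 in KO DR, with all 8 higher in KO under either diet. The part of adipocyte or blood RNA in the muscle values of Pck1 was not tested, and in tissue samples more cells of a type and more RNA per cell cannot be told apart.

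Pdp2 was called in muscle in all 6 contrasts, though the differences were small. Its FPKM was 2.03 (1.79 to 2.28) in WT AL, 2.7 (2.57 to 2.83) in WT DR, 3.91 (3.44 to 4.37) in KO AL and 2.23 (2.03 to 2.42) in KO DR, so that KO AL was highest and WT AL lowest. The log2 difference was 0.94 (SE 0.12) for KO AL against WT AL and 0.41 (SE 0.09) for WT DR against WT AL. It was -0.28 (SE 0.07) for KO DR against WT DR, -0.81 (SE 0.11) for KO DR against KO AL and 0.53 (SE 0.09) for KO AL against WT DR. KO was thus above WT under AL and below it under DR, an interaction of -1.22 (SE 0.14).

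These calls rest on intervals that were narrow for the table. In muscle the relative SD of Pdp2 was 5.99% in WT AL, 2.33% in WT DR, 5.95% in KO AL and 4.41% in KO DR. Entries whose FPKM lay within 1.5-fold of it had median relative SD of 54.5%, 41.6%, 40.1% and 41.6%, and at most 0.511% of them were narrower. When the relative SD of each group was raised to at least the median of its entries, an alternative chosen after seeing the data, none of the 8 Pdp2 calls held. Neither did the Pck1 call, while the 2 Fbp1 calls and the G6pc call, which needs its WT DR value to be tested at all, passed the FDR.

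**Figure D4:**
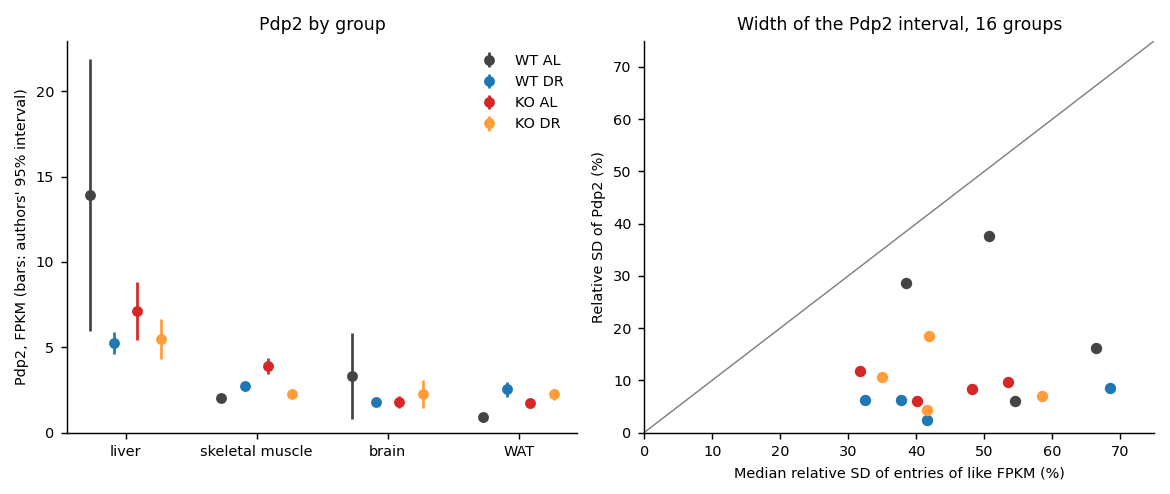
Left, Pdp2 FPKM by tissue and group with the authors' 95% interval as bars. Right, the relative SD of Pdp2 against the median relative SD of entries of like FPKM in each of the 16 groups, with the line of equality; all 16 points lie below the line, those of muscle at 2.33% to 5.99%.

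In WAT, Pdp2 was the 1 member called. KO AL against WT AL called 1 of 7 tested members (1.29% of all entries) and WT DR against WT AL 1 of 7 (0.57%), while KO DR against WT DR called 0 of 6 (0.283%), KO DR against KO AL 0 of 7 (0.707%), KO AL against WT DR 0 of 7 (0.642%) and the interaction 0 of 7 (0.121%). At an unadjusted p under 0.05 the last 4 counts were 0, 1, 1 and 1. Over all entries they were 223 of 14820, 627 of 15552, 538 of 15273 and 246 of 15727. The member counted was Pdp2 each time. Its FPKM was 0.886 (0.601 to 1.17) in WT AL, 2.53 (2.1 to 2.96) in WT DR, 1.74 (1.45 to 2.04) in KO AL and 2.24 (1.93 to 2.55) in KO DR. WT AL lay below the other 3 groups with no overlap of intervals. The log2 difference was 0.98 (SE 0.26) for KO AL and 1.51 (SE 0.26) for WT DR, both against the same WT AL group. The relative SD of Pdp2 in WAT was 7% to 16.1%, beside medians of 48.2% to 68.5% for entries of like level.

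Slc2a4 in WAT was 55.9 FPKM (27.2 to 84.6) in WT AL, 152 (0 to 310) in WT DR, 49.4 (19.9 to 78.8) in KO AL and 85.5 (0 to 184) in KO DR. Both restricted groups were above both AL groups, with wide intervals. The log2 difference of DR less AL was 1.44 (SE 0.84) in WT and 0.79 (SE 0.94) in KO, and neither passed the FDR. The adipocyte markers summed to 26575, 30313, 17457 and 22547 FPKM in WT (AL, DR) and KO (AL, DR), higher in DR than in AL within each genotype, and their part in the Slc2a4 values was not tested. Pck1 in WAT varied less, between 962 in KO AL and 1237 in WT DR, and Hk2 lay between 5.39 and 9.16.

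The liver genes in WAT were lowest in KO DR. Fbp1 was 8.41, 9.15, 13.1 and 1.22 FPKM in WT (AL, DR) and KO (AL, DR), and its KO DR against KO AL difference was -3.42 (SE 1.78) and did not pass the FDR. Gys2 was 7.99, 11.9, 9.89 and 3.78, Slc2a2 1.37, 0.815, 1.2 and 0.33, and G6pc 0.64, 0.755, 0.658 and 0.0513. The summed liver markers in WAT were 654, 364, 615 and 93.3 and were likewise lowest in KO DR. Gys2 nonetheless stood at 9.41%, 6.94%, 10.8% and 1.6% of its liver level in these groups, where the highest marker stood at 1.62%, 0.543%, 0.859% and 0.116%. Slc2a2 was also above the highest marker in WT DR (0.581%), KO AL (1.59%) and KO DR (0.203%), but not in WT AL (1.49%). Pklr was above it only in KO AL (1.76%) and KO DR (0.265%), and G6pc only in WT DR (0.698%). Fbp1 stayed below it in every group. The part of liver RNA in these WAT values was not tested.

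In brain 3 members at most could be tested, Hk2, Slc2a4 and Pdp2, and none was called. The counts were 0 of 3 for KO AL against WT AL (0.203% of all entries), WT DR against WT AL (0.224%), KO DR against WT DR (1.16%), KO DR against KO AL (0.365%) and the interaction (0.396%), and 0 of 2 for KO AL against WT DR (0.577%). At an unadjusted p under 0.05 all of these counts stayed at 0 but that of the interaction, which was 1, for Pdp2 at 1.25 (SE 0.63). Over all entries, in the order given, the counts were 277 of 15264, 337 of 15164 and 1145 of 15262. The rest were 385 of 15349, 552 of 15655 and 540 of 15255. Slc2a4 ran from 1.05 FPKM in WT DR to 2.65 in KO DR and Hk2 from 0.531 in KO AL to 1.41 in KO DR, with overlapping intervals. The other 6 genes were at an FPKM of 0.482 or less in every brain group.

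Several contrasts were shifted as a whole, and the member differences above are on the unshifted scale. The median log2 difference of all tested entries was 0.16 in liver and 0.13 in brain for KO AL against WT AL, -0.17 in WAT for WT DR against WT AL and 0.23 in brain for KO DR against WT DR. It was 0.12 in liver, 0.18 in brain and 0.14 in WAT for KO AL against WT DR, 0.13 in WAT for the interaction, and at most 0.10 in size elsewhere. Relative to these medians no called member changed direction.

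The wider pathways were covered by 6 lists with 88 genes, of which 86 had a single entry and 77 were not members. The lists held glucose and monocarboxylate transporters, glycolytic enzymes, gluconeogenic enzymes, their regulators, glycogen genes and the pyruvate dehydrogenase complex with its kinases, phosphatases and carriers. In liver 0 of 70 to 73 tested genes were called in any contrast, beside 0.086% to 0.89% of all entries. In the order of contrasts used for the liver members, 3, 4, 3, 7, 3 and 4 had an unadjusted p under 0.05. Over all 13539 to 13956 entries tested these counts were 277, 394, 241, 394, 628 and 147. The median log2 difference of the lists together in liver was -0.09 for WT DR against WT AL and 0.01 for KO DR against KO AL, beside 0.03 and -0.03 for all entries. No gene of the transporter list was called in any tissue. Most of the pathway calls in the other tissues, described next, were lost when the relative SD was raised to at least the median of its group.

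In muscle the WT DR group again stood out. Against WT AL, 3 of 79 tested genes were higher and 1 lower, Pdp2 included, or 5.06% beside 1.4% of all entries. Slc37a4, which carries glucose 6-phosphate to G6pc, was 55.2 FPKM in WT DR against 22.6 in WT AL (log2 difference 1.29, SE 0.35). Ppp1r3c, a glycogen-targeting subunit of protein phosphatase 1, was 41.5 against 150 (-1.86, SE 0.55). The liver markers summed to 2394 FPKM in WT DR muscle, beside 20.6 in WT AL, 45.6 in KO AL and 101 in KO DR. The part of liver RNA in the muscle counts that use WT DR, here and in the next paragraph, was not tested.

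Between KO AL and WT DR muscle 5 of 80 tested pathway genes were higher in KO AL and 2 lower, members included, or 8.75% beside 1.89% of all entries. The genes higher in KO AL were Pdp2, Foxo1 (6.15 against 2.5 FPKM, log2 difference 1.30), Sik1 (3.4 against 1.72), Ldhb (321 against 89.8) and Ppp1r3c (134 against 41.5). Foxo1 is a transcription factor held out of the nucleus by insulin signalling and known to drive G6pc and Pck1, and Sik1 is a kinase that restrains the cAMP arm of gluconeogenesis. Fbp1 was among those lower in KO AL. Sik1 was also higher in KO DR than in WT DR muscle (3.23 against 1.72, log2 difference 0.91), where 2 of 80 genes were higher and 3 lower (6.25% beside 2.23% of all entries), 4 of these 5 being the members given above.

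In WAT the pathway calls were few. For KO AL against WT AL, 2 of 81 tested genes were higher and 0 lower, Pdp2 included, or 2.47% beside 1.29% of all entries. Pgam2, the muscle phosphoglycerate mutase, was 16.9 against 0.599 FPKM (log2 difference 4.81, SE 1.16). The skeletal muscle markers in WAT summed to 526 in WT AL, most of it Acta1 (507), and to 1338 in KO AL. In KO AL 7 of the 8 were higher than in WT AL, such as Ckm (148 against 2.2), and Acta1 was lower (337). In WT DR, where Pgam2 was 10.4, 7 were again higher than in WT AL, but the sum was 450 with Acta1 at 112. Mammary epithelium markers in WAT summed to 19.5 in WT AL and 28.5 in WT DR against 478 in KO AL and 125 in KO DR. The part of either was not tested. For WT DR against WT AL, Mpc1, a subunit of the mitochondrial pyruvate carrier, was 846 against 156 (2.44, SE 0.48) and Sik1 1.53 against 4.32 (-1.50, SE 0.33). Of the 14 tested pyruvate dehydrogenase genes in that contrast 11 had a positive difference, with a median of 0.90 beside -0.17 for all entries. Of these genes 2, Mpc1 and Pdp2, were called (14.3% beside 0.57% of all entries). Other lists had positive medians too, 1.10 for glycolysis, 0.52 for gluconeogenesis and 0.44 for glycogen, but not transport (-0.15) or regulators (-0.18). The lists together had a median of 0.49, with 2 of 80 tested genes called higher and 1 lower (3.75%). KO AL against WT DR, which shares the WT DR group, called Mpc1 (-2.46) and Sik1 (1.51). This was 1 of 81 tested genes higher and 1 lower, or 2.47% beside 0.642% of all entries.

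In brain Pck2, the mitochondrial form of the Pck1 enzyme, was the 1 pathway gene called. This was 1 of 73 tested genes for KO DR against WT DR, or 1.37%, near the 1.16% of all entries. Pck2 was 14 FPKM in KO DR against 4.52 in WT DR (log2 difference 1.64, SE 0.40), and 7.95 in WT AL and 9.85 in KO AL. The median of all brain entries in this contrast was 0.23.

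Entries with the most similar pattern to each member were taken by Pearson's r of log2(FPKM + 1) over the 16 groups, as a description. The 16 points share 4 tissues and the same animals' groups, so they are not independent. Fbp1 was closest to Apob, F2 and Fgg, G6pc to Ugt3a1, Acnat2 and Cpn2, and Slc2a2 to 2810007J24Rik, Akr1c20 and Abcg5, all with r of 1.00. Pklr was closest to Acsm1, Pdzk1 and Soat2 (1.00), Gys2 to Ces2g, Fmo5 and Adtrp (0.98) and Pck1 to Ces1d, Ifi35 and H6pd (0.98 to 0.99). Slc2a4 was closest to Prrx1, Hoxd8 and Tmem182 (0.98 to 0.99), Hk2 to Cox8b, Fsd2 and Pdlim3 (0.98 to 0.99) and Pdp2 to Tor1b, Zfp623 and Nat1 (0.91 to 0.93).

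After each tissue mean was subtracted, so that what remained was the difference between the 4 groups within tissues, the closest entries changed. Fbp1 was then nearest to Fga, Fgg and Serpina1c (r of 0.99), which encode plasma proteins secreted by the liver. G6pc was nearest to Mup2, Mup13 and Mup1 (0.93 to 0.94), major urinary proteins made in liver, and Slc2a2 to Cyp2c70, Serpina6 and Sult2a4 (0.96). Slc2a4 was nearest to Vcp-rs, Pgp and Prrt4 (0.93 to 0.94), Pck1 to Gm22405, Ifi27 and Gm26191 (0.86 to 0.87) and Pdp2 to Pars2, Sdr42e1 and Nt5m (0.86 to 0.88). Hk2 was nearest to Prox2, Elac1 and Gtf3c5 (0.83), Pklr to Acsm1, Col14a1 and Pitpnc1 (0.80 to 0.82) and Gys2 to Gm7722, Ska2 and Gm4968 (0.77 to 0.81).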

How the data were processed

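RNA from 43 libraries of liver, skeletal muscle, brain and inguinal WAT was sequenced on an Ion Proton instrument. The authors trimmed reads with cutadapt 1.5, mapped them to GRCm38 and ran Cuffdiff 2.2.1, and they deposited pooled FPKM values per gene and group with a 95% interval. FPKM divides by transcript length and mapped fragments, so a few very abundant transcripts can shift all others. No counts or single-library values were used here, so depth is unknown. The labels give n as female mice, so libraries of a group in 1 tissue were taken as separate mice, and the 4 tissues may come from the same mice. The test measures the spread the authors' intervals carry.

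Each SD was taken as the distance from FPKM to upper bound, divided by 2. Log2 ratios without a pseudocount were tested with a two-sided Wald test (delta-method SE, normal reference) over all entries with an FPKM above 0 in all groups used and of at least 1 in one, with Benjamini-Hochberg adjustment within tissue and contrast at an FDR of 10%. The genes named were the 9 members, list genes that were called, marker lists, Irs1 and, per member, the 3 entries of most similar pattern. A list gene that was counted is not reported here by name. Members and lists were chosen with earlier results of these data known. Analyses used Python 3.11.15, numpy 2.4.6, pandas 2.3.3, scipy 1.17.1 and matplotlib 3.10.9. Alternatives were an FDR of 5%, interval overlap, pseudocounts of 0.1 and 1, other FPKM minimums, a smaller or larger SD, median centring and omission of joined entries.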

Additional observations from a re-analysis of the deposited data

Results flagged for a closer look

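The genotype difference of Pdp2 in skeletal muscle differed between diets. KO less WT was 0.94 (SE 0.12) under AL and -0.28 (SE 0.07) under DR on the log2 scale, a difference of -1.22 (SE 0.14) that passed the FDR of 10% in the Wald test. It no longer passed when the narrow Pdp2 intervals were widened to the median relative SD of each group (SE 1.05). Group values alone do not show how many libraries shared the direction.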

How the results depend on the processing

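The counts of called members, summed over tissues, were 2 for KO AL against WT AL, 2 for WT DR against WT AL, 4 for KO DR against WT DR, 1 for KO DR against KO AL, 2 for KO AL against WT DR and 1 for the interaction. In that order, raising the SD to at least the median gave 0, 0, 2, 0, 1 and 0, and a minimum FPKM of 5 gave 0, 0, 2, 0, 1 and 0, since Pdp2 in muscle and WAT and G6pc in muscle are then not tested. An SD divided by the root of the number of libraries gave 4 for WT DR against WT AL, 6 for KO DR against KO AL, 8 for KO AL against WT DR and 4 for the interaction. The calls between 2 groups then included members in liver. For WT DR against WT AL this was Pdp2 (-1.40), and for KO DR against KO AL G6pc (-1.04), Slc2a2 (1.12) and Pdp2 (-0.38). For KO AL against WT DR they were Pck1 (1.24), G6pc (0.82) and Pdp2 (0.44). Intervals that do not overlap gave 4 for WT DR against WT AL and 2 for KO DR against WT DR, and could not be applied to the interaction. The interaction count was 2 with a pseudocount of 0.1, 3 with a pseudocount of 1 and 2 after median centring. An FDR of 5%, no minimum FPKM and omission of joined entries kept every count within 1.5 times. Median centring turned 4 differences that were not called, Gys2 to -0.06 in liver (KO AL against WT AL), Pdp2 to -0.03 in liver (KO DR against WT DR) and -0.17 in brain (KO AL against WT DR), and Hk2 to 0.00 in WAT (KO DR against KO AL). Other pathway genes called went from 1, 5, 2, 0, 7 and 0 to 8, 16, 23, 16, 20 and 10 with the smaller SD, and were 1, 1, 0, 0, 1 and 0 with the SD raised to at least the median, so most of these calls were lost. No paired analysis was possible because the table holds 1 pooled value per group, and for the same reason no replicate could be left out. Depth limits cannot be given without counts.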
